A study of Homo sapiens with 12 samples.

Results

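CHAGO is a human bronchogenic carcinoma cell line, known for secreting the alpha subunit of the glycoprotein hormones. Its libraries were chosen by the cell line that the labels name, which gave 3 of the 12 RNA-seq libraries of the series. They were set against the 9 libraries of H1703, H1299 and CALU, also lung cancer lines. Each of the 4 lines was sequenced once as parental cells, which the labels call adherent. Each was also sequenced once as TICs, short for tumor-initiating cells, which can start a tumor anew, and once as TICs with knockdown of PRKCI, the gene of atypical protein kinase C iota. The label CALU does not say which of the Calu lines was used, and how the TICs were grown or the knockdown made is not given in the sources used here. The 3 CHAGO libraries are 1 line in 3 states, so the p-values below measure the spread between libraries, which may in part be technical. The other lines were fitted as 1 group, so the differences among H1703, H1299 and CALU are part of that spread. The p-values do not measure the spread between lines of one kind. In RNA from whole cultures, fewer cells that express a gene and less RNA per cell cannot be told apart.

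Lung carcinoma lines keep parts of the program of the tissue they came from. Epithelial cells hold together through E-cadherin, encoded by CDH1, which is tied to the actin skeleton by beta- and alpha-catenin, and they fill their skeleton with keratins. Mesenchymal cells use N-cadherin and vimentin instead, and the repressor ZEB1 holds epithelial genes down by binding E-box sequences in their promoters.

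PRKCI, the knockdown target, had 356, 608 and 23.2 CPM in CHAGO parental cells, TICs and knockdown TICs, where CPM, counts per 1e+06 counted reads, is TMM-scaled. In the same order of states it had 301, 340 and 58.0 CPM in H1703, 309, 198 and 25.8 CPM in H1299, and 262, 237 and 41.5 CPM in CALU. The knockdown library was the lowest of its line in CHAGO and in each other line. Across states PRKCI did not pass the test between CHAGO and the other lines (log2 fold change 0.35 ± 0.37 (SE), adjusted p = 0.602). Without the CHAGO TIC library its log2 fold change was −0.22.

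CGA, the alpha subunit shared by chorionic gonadotropin and the pituitary glycoprotein hormones, had 73.5, 236 and 189 CPM in CHAGO parental cells, TICs and knockdown TICs. It had no read in any of the 9 libraries of the other lines. The groups did not overlap, and the CHAGO libraries lay above all 9 others for 9.04% of all tested genes. CGA was at least 1922-fold higher in CHAGO, taking 3 reads in each other library as the limit of detection (adjusted p = 0.0107). Of the genes for the beta subunit that pairs with CGA in chorionic gonadotropin, CGB5 and CGB8 had no read in CHAGO and CGB7 had at most 0.0449 CPM. These near-identical copies can share reads, and CGB3, another of them, was not analysed here because no listed symbol matched it. Of 18 trophoblast genes, CGA among them, 8 were tested, and CGA and GATA3 were called higher, against 4.02% of all tested genes. GCM1, a transcription factor of trophoblast fusion, had no read in CHAGO. TFAP2C, a transcription factor of trophoblast, had 94.5, 73.8 and 81.9 CPM in CHAGO and 0 to 10.4 CPM elsewhere, and did not pass (adjusted p = 0.154).

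The promoter of CGA is shown because it holds a cyclic AMP response element, the letters TGACGTCA, in 2 copies, and this line is known for the gene. The window runs from 250 bases before to 50 bases after the RefSeq start, on the minus strand at chr6:87095057-87095356 of GRCh38.p14, and capitals mark the element, which reads the same on both strands.
CGA promoter: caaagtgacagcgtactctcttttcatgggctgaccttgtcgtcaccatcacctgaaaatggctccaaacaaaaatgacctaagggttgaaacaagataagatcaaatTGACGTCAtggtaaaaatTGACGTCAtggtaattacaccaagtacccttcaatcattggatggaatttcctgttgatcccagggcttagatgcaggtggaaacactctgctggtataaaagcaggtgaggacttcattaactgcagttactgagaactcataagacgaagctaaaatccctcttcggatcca
The copies begin 142 and 124 bases before the start. The element was found in 1.98% of all 27305 promoters of this length, in 3.22% of those of tested genes and in 4.41% of those of genes set apart as higher in CHAGO. Among 27 tested genes of cyclic AMP signalling, CREM, a transcription factor that binds this element, had 117, 244 and 218 CPM in CHAGO and 7.85 to 36.5 CPM (median 17.6) in the other lines. CREM was higher in CHAGO in each state (log2 fold change 3.38 ± 0.35, adjusted p = 0.000577). ADCY6, an adenylyl cyclase, was also called higher at 3.33 ± 0.61 (adjusted p = 0.0107), and AKAP12, a scaffold of protein kinase A, lower at −3.83 ± 0.94 (adjusted p = 0.0366). The list as a whole had a median log2 fold change of 0.08, beside −0.09 over all tested genes. Of all tested genes, 4.02% were called higher and 3.02% lower. When 1 library at a time was left out, ADCY6 lost its call in 2 of 12 fits and AKAP12 in 7 (adjusted p up to 0.0973 and 0.206).

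**Figure D1:**
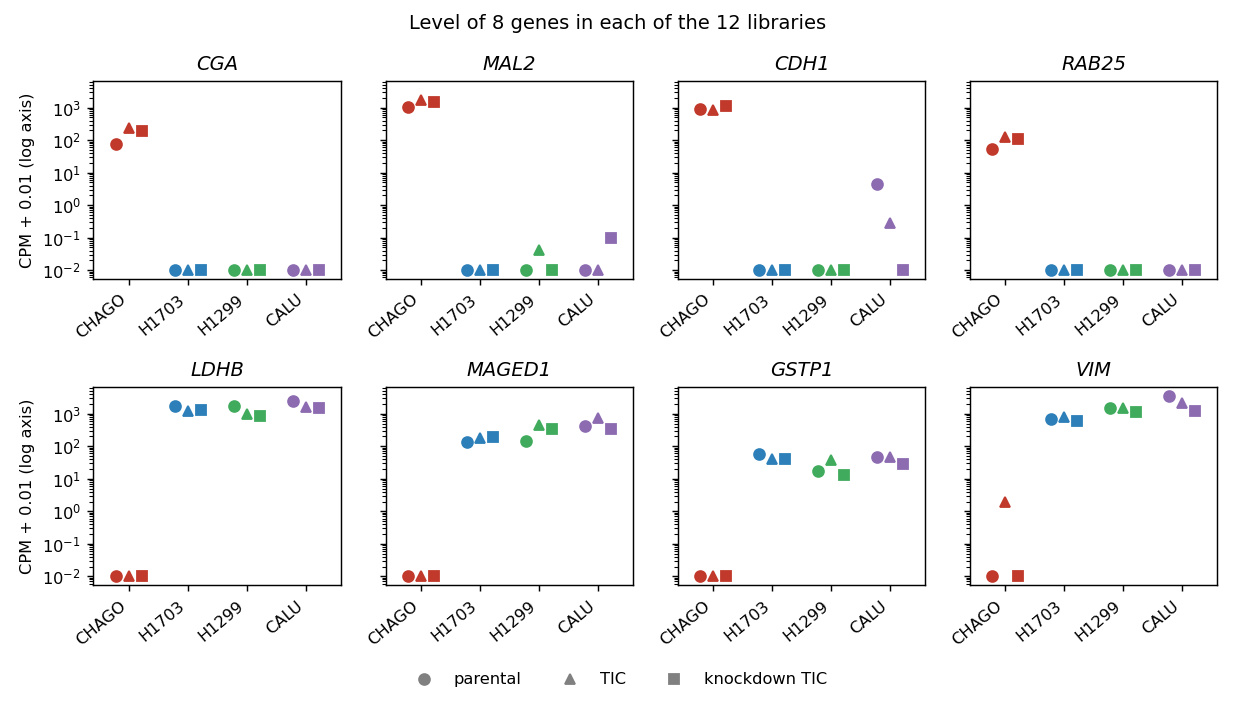
CPM plus 0.01 on a log axis for 8 genes in each of the 12 libraries, with CHAGO at the left and the other lines after it, and the symbol showing the state. CGA, MAL2, CDH1 and RAB25 lie far above the other lines in all 3 CHAGO libraries. LDHB, MAGED1 and GSTP1 have no read there, and VIM has none in the parental and knockdown TIC libraries and a low level in the TIC library.

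In the fit over all 14882 genes with enough reads, 599 genes were called higher in CHAGO (4.02%) and 450 lower (3.02%) at an adjusted p under 0.05, by edgeR's quasi-likelihood test with state as a block. A gene set CHAGO apart when it was called and, in each of the 3 states, lay at least 1 log2 unit beyond the nearest other line. By that rule 319 genes were higher (2.14%) and 263 lower (1.77%). The smallest margins inside the rule were 1.006 for higher and 1.002 for lower genes, and the largest among genes left out by it were 0.999 and 0.989. The 3 CHAGO libraries lay above all 9 others for 1345 tested genes (9.04%) and below all 9 for 778 (5.23%). With another line in the place of CHAGO, the same fit set apart 133 genes as higher (0.894%) and 299 as lower (2.01%) for H1703, 77 (0.517%) and 40 (0.269%) for H1299, and 241 (1.62%) and 186 (1.25%) for CALU. The counts for CHAGO rested on all 3 of its libraries. Without the parental library 211 genes were set apart as higher and 180 as lower, without the TIC library 90 and 102, and without the knockdown library 90 and 109. With the 3 libraries of each line summed into 1, so that lines and not libraries were compared, no gene was called by edgeR (850 of 16918 had an unadjusted p under 0.05). Of the genes called, 57.1% were higher in CHAGO by edgeR, 35.3% by DESeq2 and 85.9% by limma voom with line as a random block.

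CHAGO libraries held 63.8 to 83.3 M counted reads, against 21.2 to 36.1 M in H1703 and H1299 and 80.4 to 91.8 M in CALU. A limit of 3 reads was 0.0367 to 0.0449 CPM in CHAGO and up to 0.134 CPM elsewhere, and such limits cover counting error only. After each state's mean was removed, CHAGO libraries correlated with one another across genes at 0.671 to 0.764 and with those of other lines at −0.435 to −0.176. Among markers of other cell types, none of the 3 leukocyte, 4 endothelial and 8 fibroblast genes tested was called by edgeR at an adjusted p under 0.05. Summed over 11 leukocyte genes the level was 1.54 to 151 CPM in CHAGO and 219 to 808 CPM elsewhere. CD68, which is not restricted to leukocytes, made up most of it outside the CHAGO parental library, PTPRC had at most 0.359 CPM in CHAGO and CD3E had no read. Some members were higher in at least 1 CHAGO library than in any library of another line: CD14 of leukocytes had 0.748, 0 and 4.05 CPM in CHAGO and at most 0.141 CPM elsewhere. CDH5 of endothelium had 2.56, 1.003 and 3.34 CPM in CHAGO and no read elsewhere (adjusted p = 0.101), and COL3A1 of fibroblasts had 32.3, 2.29 and 0.515 CPM in CHAGO and at most 1.63 CPM elsewhere (adjusted p = 0.29). The 7 endothelial genes summed to 1.21 to 3.61 CPM in CHAGO and 0 to 47.9 CPM elsewhere, and the 9 fibroblast genes to 2.39 to 38.4 CPM in CHAGO and 0.0322 to 3093 CPM elsewhere.

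**Figure D2:**
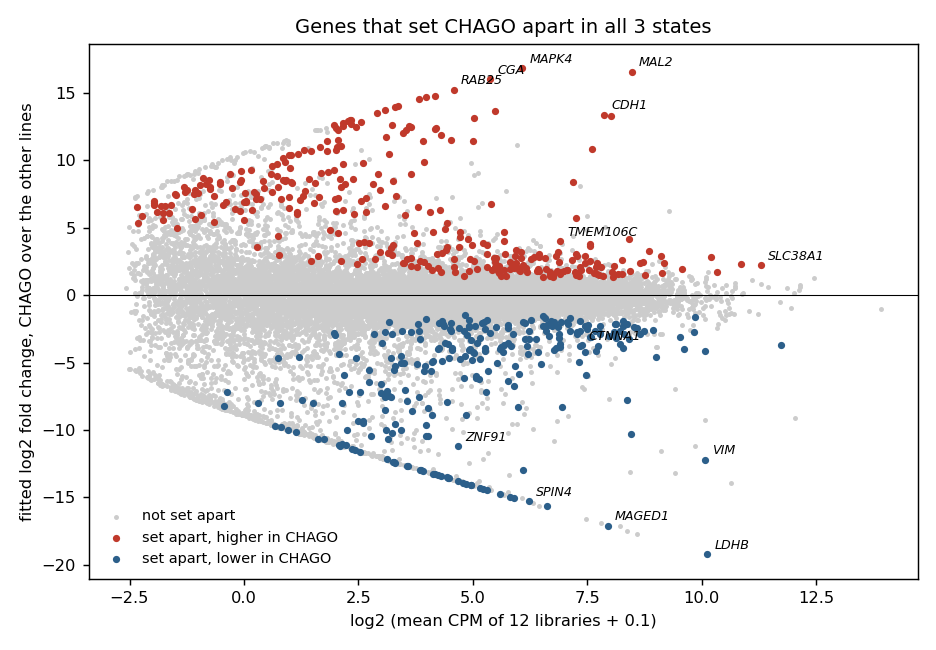
Fitted log2 fold change of CHAGO over the other lines (vertical axis) against the log2 of the mean CPM of 12 libraries plus 0.1 (horizontal axis) for each tested gene. Red points are the 319 genes set apart as higher and blue points the 263 set apart as lower; the smooth outer edges are genes with no read on one side, where the fitted value depends on the prior count.

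Many epithelial genes were higher in CHAGO. Of 24 epithelial genes, all tested, 12 were called higher (4.02% of all tested genes) and none lower, 11 were set apart, and the median log2 fold change was 6.62, beside −0.09 over all tested genes. Summed, they reached 3485 to 5014 CPM in CHAGO and 4.78 to 836 CPM elsewhere, so the groups did not overlap. Of the 24, 2 had no read in the other lines and entered the test through CHAGO alone, so their sign was fixed in advance.

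CDH1 had 889, 826 and 1104 CPM in CHAGO parental cells, TICs and knockdown TICs, against 0 CPM in each H1703 and H1299 library and 4.36, 0.265 and 0 CPM in CALU. CDH1 reached a log2 fold change of 13.37 ± 1.96 (adjusted p = 0.00357). MAL2, a membrane protein of apical transport, had 1034, 1691 and 1540 CPM in CHAGO and at most 0.0846 CPM elsewhere (log2 fold change 16.57 ± 0.88, adjusted p = 9.97e-06). Every CHAGO library was above every other library for both, as for 9.04% of all tested genes. RAB25, a small GTPase of apical recycling, had 52.7, 125 and 109 CPM in CHAGO and no read elsewhere, at least 1107-fold higher. GRHL2, a transcription factor of epithelial genes, had 77.3, 54.4 and 54.9 CPM in CHAGO and no read elsewhere, at least 720-fold higher. ST14, the membrane protease matriptase, and S100A14, a calcium-binding protein, were set apart too, at log2 fold changes of 11.39 ± 1.03 and 12.32 ± 1.58.

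Some epithelial genes did not separate CHAGO. KRT19 had 9.21, 70.5 and 51.8 CPM in CHAGO and up to 237 CPM in CALU, and its adjusted p was 0.972. Without the CALU libraries its log2 fold change was 11.14 (adjusted p = 0.00837). KRT7, KRT8 and KRT18 had adjusted p of 0.633, 0.26 and 0.144. ESRP1, a splicing regulator of epithelial cells, had 172, 220 and 223 CPM in CHAGO and at most 19.2 CPM elsewhere, and missed the threshold (adjusted p = 0.0557; 0.0442 without the CALU libraries), while its relative ESRP2 passed it (log2 fold change 6.96 ± 1.67, adjusted p = 0.0335). EPCAM, an epithelial adhesion molecule, had 431, 666 and 611 CPM in CHAGO and 0 to 24.0 CPM elsewhere (log2 fold change 8.41 ± 2.22, adjusted p = 0.0476). The groups did not overlap for EPCAM, and the CHAGO libraries lay above all others for 9.04% of all tested genes. The call of EPCAM was lost in 10 of 12 fits that each left out 1 library, with an adjusted p of up to 0.255. ESRP2 lost its call in 8 of the 12, GRHL2 in 3, RAB25 and S100A14 in 2 and CDH1 in 1, without the knockdown library (adjusted p = 0.0775).

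Fewer mesenchymal genes were called. Of 15 tested, VIM, CDH2 and ZEB1 were called lower and none higher, against 3.02% of all tested genes called lower, and the median log2 fold change was −6.99. Of the 15, 11 had a negative log2 fold change and 4 a positive one. Genes with no read on one side, also 4 of the 15, entered the test through the other side alone, so their sign was fixed in advance. VIM, the intermediate filament vimentin, had 0, 1.98 and 0 CPM in CHAGO parental cells, TICs and knockdown TICs and 617 to 3469 CPM (median 1173) elsewhere. ZEB1 had 19.1, 9.76 and 7.70 CPM in CHAGO and 111 to 365 CPM (median 229) elsewhere. CDH2, N-cadherin, had 2.39, 1.54 and 2.06 CPM in CHAGO and 15.8 to 269 CPM (median 55.6) elsewhere. None of these 3 overlapped between the groups, and the CHAGO libraries lay below all others for 5.23% of all tested genes. The log2 fold changes were −12.19 ± 2.17 for VIM (adjusted p = 0.00965), −4.23 ± 0.50 for ZEB1 (adjusted p = 0.00129) and −5.23 ± 1.17 for CDH2 (adjusted p = 0.0253). CDH2 lost its call without any 1 of the CHAGO libraries (adjusted p up to 0.16). FN1, fibronectin, ranged from 0.539 to 39411 CPM among the other lines and was 7.30, 0.697 and 2.23 CPM in CHAGO, and it did not pass (adjusted p = 0.21). FN1 was called lower with a term for each line (adjusted p = 0.016) and against CALU only (adjusted p = 0.0182). SNAI1, TWIST1 and TWIST2, repressors of epithelial genes, had at most 2.60 CPM in CHAGO and did not pass either.

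**Figure D3:**
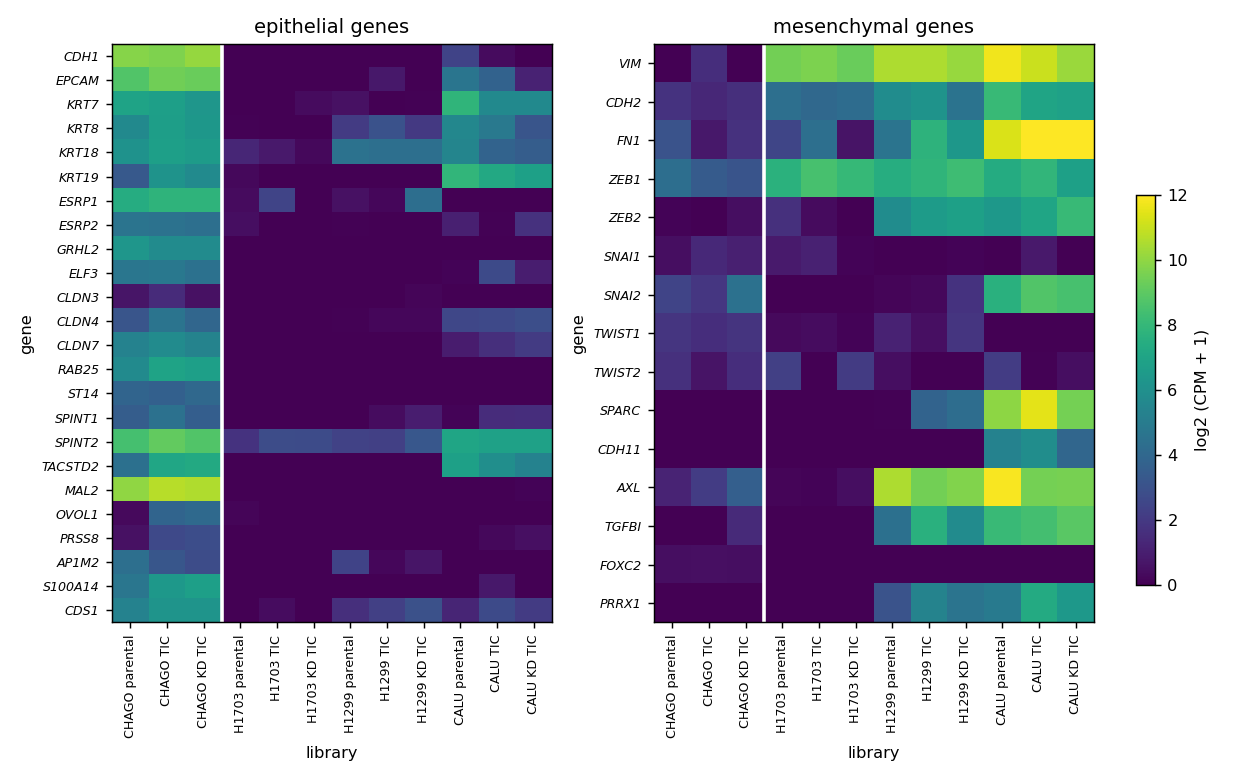
Heat maps of log2 (CPM + 1) for the 24 epithelial and 15 mesenchymal genes (rows) in the 12 libraries (columns), with the 3 CHAGO libraries left of the white line. Many epithelial rows are bright in CHAGO alone, keratins and SPINT2 are also bright in CALU, and VIM, CDH2 and ZEB1 are darker in CHAGO than in any other library.

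Other adhesion genes differed in both directions. CTNNA1, the alpha-catenin that links cadherins to actin, was chosen after its values were seen. It had 16.3, 21.1 and 12.8 CPM in CHAGO and 156 to 395 CPM (median 178) elsewhere, and its log2 fold change was −3.70 ± 0.43 (adjusted p = 0.00112). CHAGO had the highest CDH1 levels of the 12 libraries and the lowest CTNNA1 levels. Among 20 tested cadherins and desmosomal cadherins, CDH1, CDH3, PCDH20 and DSC2 were called higher and CDH2 lower, against 4.02% and 3.02% of all tested genes. DSC2, desmocollin 2, had 391, 537 and 787 CPM in CHAGO and 0.0362 to 34.5 CPM elsewhere (log2 fold change 5.70 ± 1.14, adjusted p = 0.0165). ITGB6, the beta subunit of an integrin of epithelial cells, was higher at 10.43 ± 1.35 (adjusted p = 0.00188), and ITGA3 and ITGA4 were lower. DSC2, CDH3, PCDH20, ITGA3 and ITGA4 each lost the call without any 1 CHAGO library (adjusted p up to 0.137, 0.116, 0.101, 0.18 and 0.122).

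The series presents its lines as lung squamous cell carcinoma. Of 13 squamous genes, 9 were tested, and KRT6A, TRIM29, SERPINB5 and CLCA2 were called higher in CHAGO and none lower, against 4.02% and 3.02% of all tested genes. The median log2 fold change of the 9 was 10.8, or 7.48 with genes lacking reads in the other lines at their lower bound. Genes lacking reads in the other lines entered the test through CHAGO alone, so this median does not stand for the whole list. TRIM29, a regulator found in squamous epithelia, had 178, 121 and 85.3 CPM in CHAGO and at most 0.479 CPM elsewhere (log2 fold change 11.39 ± 1.63, adjusted p = 0.00307). SERPINB5, the serpin maspin, had 13.2, 77.2 and 145 CPM in CHAGO and at most 0.205 CPM elsewhere (11.87 ± 1.25, adjusted p = 0.00065). KRT6A had 0.254, 20.3 and 43.6 CPM in CHAGO and no read elsewhere, at least 247-fold higher (adjusted p = 0.0446). The parental library was the lowest of the 3 for SERPINB5 and KRT6A. TP63, the master factor of squamous cells, had 4.25, 36.2 and 43.9 CPM in CHAGO and up to 45.1 CPM elsewhere, so the groups overlapped (adjusted p = 0.392; 0.00671 without the CALU libraries). KRT5, the basal keratin that defines squamous tumors, had 0.015, 0.391 and 2.52 CPM in CHAGO, too few reads to be tested. KRT6A and CLCA2 lost their calls in 3 of 10 and 4 of 12 fits that each left out 1 library (adjusted p up to 0.08 and 0.165).

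Markers of lung adenocarcinoma were mostly absent from CHAGO, where 8 of 13 had no read, and 4 of these had none in any line. Summed, the 13 reached 65.3 to 103 CPM in CHAGO and 9.61 to 209 CPM elsewhere, so the groups overlapped. NKX2-1, the factor of lung and thyroid fate, had 0.224, 0.0245 and 0 CPM in CHAGO, and surfactant gene SFTPB had no read. MUC1, a membrane mucin, was the one of 7 tested genes that was called higher, against 4.02% of all tested genes. It had 42.4, 68.5 and 49.0 CPM in CHAGO and 0 to 1.56 CPM elsewhere (log2 fold change 6.51 ± 1.0, adjusted p = 0.00413). None of 7 tested neuroendocrine genes was called, by edgeR at an adjusted p under 0.05. GATA3, a factor of trophoblast, breast and urothelium, had 58.8, 6.43 and 6.77 CPM in CHAGO and 0 to 1.17 CPM elsewhere (6.13 ± 1.09, adjusted p = 0.00898). It lost the call without any 1 CHAGO library (adjusted p up to 0.0968).

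A stricter description needs no test. It takes genes with at least 1 CPM in all 3 CHAGO libraries and under 0.1 CPM in the other 9. It found 67 such genes (0.298% of 22506 listed), of which 49 had no read in any other library. MAPK4, an atypical MAP kinase, had 412, 268 and 133 CPM in CHAGO and no read elsewhere, at least 3136-fold higher. KLK6, a secreted serine protease, had 23.4, 127 and 67.2 CPM in CHAGO and no read elsewhere, at least 838-fold higher. ZFP42, known as a marker of embryonic stem cells under the name REX1, had 67.2, 49.4 and 51.1 CPM in CHAGO and no read elsewhere, at least 647-fold higher. KLK6 and ZFP42 lost their calls in 2 and 3 of 12 fits that each left out 1 library (adjusted p up to 0.0985 and 0.0809), while MAPK4 kept its call in all 12.

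Secreted and signalling genes stood among these. AGR2, a protein of mucin folding, had 105, 17.9 and 9.18 CPM in CHAGO and at most 0.0423 CPM elsewhere (log2 fold change 12.04 ± 1.11, adjusted p = 0.000284). BMP5, a ligand of the BMP pathway, had 47.0, 33.3 and 31.3 CPM in CHAGO and at most 0.0347 CPM elsewhere (12.64 ± 0.94, adjusted p = 6.62e-05). S100P and the calgranulins S100A8 and S100A9, calcium-binding proteins, had no read outside CHAGO. S100P had 16.1, 50.7 and 22.1 CPM there, S100A8 4.36, 40.4 and 15.1 CPM, and S100A9 1.45, 32.4 and 15 CPM. S100A8 and S100A9 were chosen after their values were seen. All 3 were lowest in the parental library, and S100P and S100A8 lost their calls in 3 of 12 fits that left out 1 library and S100A9 in 10 (adjusted p up to 0.146, 0.198 and 0.214). Outside this group of genes, STEAP4, a metalloreductase, and SLC38A1, a glutamine transporter, were chosen the same way. STEAP4 had 1214, 1165 and 735 CPM in CHAGO and at most 0.844 CPM elsewhere (13.27 ± 1.60, adjusted p = 0.00144), and SLC38A1 had 7024, 4954 and 6295 CPM in CHAGO and 841 to 2165 CPM elsewhere (2.23 ± 0.28, adjusted p = 0.00144).

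The promoters of RAB25 and MAPK4 are shown because both genes were read in CHAGO alone and both windows hold the E-box, searched as CAGGTG on either strand, letters that ZEB1 and other factors can bind. They lie on the plus strand of GRCh38.p14 at chr1:156060910-156061209 and chr18:50559837-50560136, come from RefSeq, and have the E-boxes in capitals.
RAB25 promoter: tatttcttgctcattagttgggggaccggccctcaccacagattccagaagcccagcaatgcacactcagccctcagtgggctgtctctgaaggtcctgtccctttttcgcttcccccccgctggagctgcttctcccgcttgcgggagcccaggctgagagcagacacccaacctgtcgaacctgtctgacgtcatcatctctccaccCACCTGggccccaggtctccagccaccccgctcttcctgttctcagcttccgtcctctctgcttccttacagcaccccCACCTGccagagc
MAPK4 promoter: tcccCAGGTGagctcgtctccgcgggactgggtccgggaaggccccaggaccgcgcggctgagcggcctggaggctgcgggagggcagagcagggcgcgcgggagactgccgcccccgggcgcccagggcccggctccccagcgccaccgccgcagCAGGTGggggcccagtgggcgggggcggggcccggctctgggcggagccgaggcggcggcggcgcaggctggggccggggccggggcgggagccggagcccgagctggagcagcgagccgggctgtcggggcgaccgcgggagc
Of 46 promoters found for the CHAGO-alone genes, 26 held the E-box (56.5%). It was in 33.9% of 227 promoters of genes set apart as higher, 16.3% of 209 set apart as lower and 18.4% of 11250 of tested genes. Of 37 promoters of genes missing from CHAGO, 3 held it (8.11%). The promoters of CHAGO-alone genes had a median of 13 CpG dinucleotides, those of genes missing from CHAGO 14 and those of tested genes 26. All 27305 promoters had a median of 14, and 20.6% of them held the E-box. Base composition thus differed between some of the sets, and its part in these shares was not tested. A match is a run of letters and not a bound site.

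On the other side, 42 genes had under 0.1 CPM in all 3 CHAGO libraries and at least 1 CPM in the other 9 (0.187% of listed genes), and 29 of them had no read in CHAGO. LDHB, the lactate dehydrogenase subunit that favors lactate use, had no read in CHAGO and 876 to 2394 CPM (median 1470) elsewhere. It was at least 36716-fold lower in CHAGO (adjusted p = 7.81e-06). LDHA, the partner subunit chosen for comparison after its values were seen, had 1025, 1340 and 1369 CPM in CHAGO and 453 to 3582 CPM elsewhere, and did not pass (adjusted p = 0.8; 0.0138 against CALU only, where it was lower in CHAGO).

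Several other genes had no read, or almost none, in CHAGO. PSAT1, an enzyme of serine synthesis, had no read in CHAGO and 37.1 to 465 CPM (median 66.2) elsewhere, at least 3252-fold lower. AK3, a mitochondrial adenylate kinase, had none in CHAGO and 34.7 to 125 CPM elsewhere, at least 1842-fold lower. GSTP1, a glutathione transferase of detoxification, had none in CHAGO and 12.8 to 58.3 CPM elsewhere, at least 905-fold lower. It was the one of 39 tested detoxification genes called lower, and 1 other was called higher, against 3.02% and 4.02% of all tested genes. The list summed to 1605 to 2443 CPM in CHAGO and 844 to 3542 CPM elsewhere. MAGED1, an adaptor of the MAGE family, had none in CHAGO and 132 to 754 CPM (median 338) elsewhere, at least 8150-fold lower. SPIN4, of the spindlin family, had none in CHAGO and 43.8 to 220 CPM elsewhere, at least 2462-fold lower. DKK3, a secreted protein of the Dickkopf family, had 0, 0 and 0.0264 CPM in CHAGO and 10.5 to 243 CPM elsewhere (log2 fold change −12.99 ± 1.74, adjusted p = 0.00205). None of these overlapped between the groups, which the rule that found them fixed in advance. Each of these genes kept its call in all 12 fits that left out 1 library.

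Of the 42 missing genes, 21 were zinc-finger genes with ZNF symbols, and 15 of those lie on chromosome 19. Many proteins of this family carry a KRAB domain and repress transposable elements. Of 232 tested ZNF genes on chromosome 19, 21 were called lower (9.05%) and 6 higher, and of 259 on other chromosomes 13 were called lower (5.02%) and 6 higher. Over all tested genes the shares were 3.02% lower and 4.02% higher. In gene order the missing genes sat together. Among all 13838 stretches of 20 adjacent tested genes, the one with the most genes called lower ran from ZNF682 to ZNF675. All 20 genes there were lower in CHAGO, 15 were called, 13 were missing, and the median log2 fold change was −9.35, or −8.96 with genes lacking CHAGO reads at their bound.

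ZNF91, a repressor of SVA transposons, had 0.015, 0.0245 and 0 CPM in CHAGO and 21.0 to 53.6 CPM (median 29.1) elsewhere. ZNF714 had no read in CHAGO and 6.92 to 60.4 CPM elsewhere, at least 713-fold lower. ZNF85 had 0.0299, 0.0367 and 0.0528 CPM in CHAGO and 6.70 to 27.5 CPM elsewhere. No CHAGO library reached the lowest library of another line for these genes, which the rule of missing genes fixed in advance. The log2 fold changes were −11.20 ± 0.82 for ZNF91 (adjusted p = 6.62e-05) and −8.58 ± 0.84 for ZNF85 (adjusted p = 0.000428). ZNF708, inside the same stretch, had 9.28, 4.54 and 1.4 CPM in CHAGO and 2.12 to 11.1 CPM elsewhere (adjusted p = 0.834). Its groups overlapped, so the stretch was not silent throughout. The genes have near copies of one another, so reads may have been shared or dropped among them, and this was not tested.

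The promoters of ZNF91 and ZNF714 are shown because the 2 genes, both missing from CHAGO, start in nearly the same letters. They come from RefSeq, GRCh38.p14, at chr19:23395422-23395721 on the minus strand and chr19:21081953-21082252 on the plus strand, and capitals mark runs of 20 or more bases that both windows share exactly.
ZNF91 promoter: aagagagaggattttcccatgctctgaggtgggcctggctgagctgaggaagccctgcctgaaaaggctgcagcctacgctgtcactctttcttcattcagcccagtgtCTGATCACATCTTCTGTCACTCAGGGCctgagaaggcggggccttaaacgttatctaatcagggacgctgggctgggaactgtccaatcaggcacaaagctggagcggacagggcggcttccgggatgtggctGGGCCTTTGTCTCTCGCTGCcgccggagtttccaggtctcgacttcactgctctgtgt
ZNF714 promoter: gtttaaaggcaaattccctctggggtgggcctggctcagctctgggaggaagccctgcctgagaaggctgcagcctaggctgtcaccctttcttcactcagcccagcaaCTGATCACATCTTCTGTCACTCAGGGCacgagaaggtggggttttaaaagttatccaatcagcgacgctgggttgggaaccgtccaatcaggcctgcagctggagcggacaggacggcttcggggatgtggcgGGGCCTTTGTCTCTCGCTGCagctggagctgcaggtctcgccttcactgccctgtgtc
Aligned end to end, the 2 windows were identical at 253 of 305 positions (83.0%). Among the 13 missing genes of the stretch, the 78 pairs of promoters were 54.9% to 91.0% identical (median 78.1%). Promoters of the other genes of the stretch, such as ZNF708, were not aligned. Whether this likeness is particular to the missing genes was therefore not tested.

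**Figure D4:**
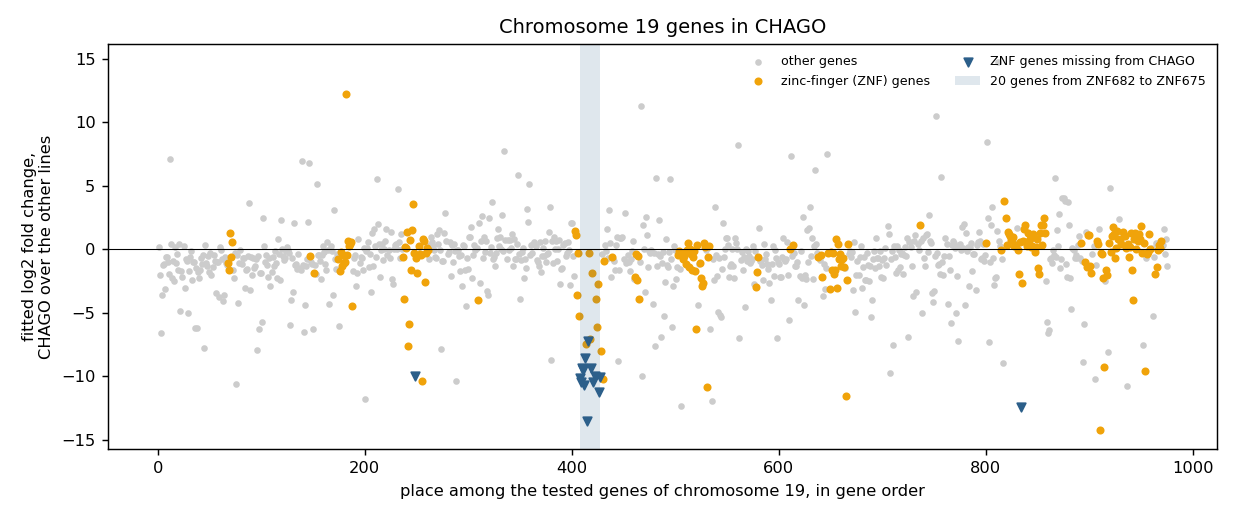
Fitted log2 fold change of CHAGO over the other lines for the 975 tested genes of chromosome 19 in gene order. The shaded band holds the 20 genes from ZNF682 to ZNF675, where 13 ZNF genes missing from CHAGO (blue) lie together, while ZNF genes elsewhere on the chromosome (orange) lie on both sides of 0.

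Other stretches of neighbouring genes differed by smaller amounts. The stretches were picked for their number of called genes, so a high count was fixed by the choice, and their genes were chosen after the values were seen. On chromosome 12, 50 of the 53 tested genes from PTPRO to CAPRIN2 were lower in CHAGO, 15 were called lower and none higher, and the median log2 fold change was −2.50. Genes with no read in CHAGO, such as PTPRO and MGST1, entered the test through the other lines alone, so their sign was fixed in advance. The share called lower was 5.99% over the chromosome and 3.02% over all tested genes. LDHB lies in this stretch. RECQL, a DNA helicase, had 42.1, 37.3 and 41.7 CPM in CHAGO and 186 to 638 CPM (median 370) elsewhere, with a log2 fold change of −3.16 ± 0.47 (adjusted p = 0.00342). ITPR2, a calcium channel of the endoplasmic reticulum, and PPFIBP1, a liprin, were lower at −3.05 ± 0.44 and −3.24 ± 0.40.

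Another stretch of chromosome 12, from TMEM106C to FKBP11, went the other way. Of its 20 genes 19 were higher in CHAGO, 12 were called, and the median log2 fold change was 3.50. The share called higher was 3.31% over the chromosome and 4.02% over all tested genes. Among all 13838 stretches of 20 genes, none had more genes called higher, which is how it was picked. TMEM106C, a membrane protein, had 382, 416 and 402 CPM in CHAGO and 7.78 to 59.0 CPM (median 28.2) elsewhere (4.0 ± 0.39, adjusted p = 0.000428). CCNT1, the cyclin of the elongation factor P-TEFb, had 417, 439 and 466 CPM in CHAGO and 30.3 to 96.6 CPM elsewhere (2.89 ± 0.29, adjusted p = 0.000491). PFKM, the muscle phosphofructokinase, and SENP1, a SUMO protease, were higher at 2.67 ± 0.35 and 2.60 ± 0.37. PFKM had 216, 214 and 200.4 CPM in CHAGO and 15.7 to 49.4 CPM elsewhere. ADCY6, of cyclic AMP signalling, is also in this stretch.

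On chromosome 8, 10 of 20 genes from DSCC1 to TRMT12, a stretch picked in the same way, were called higher and none lower. The share called higher was 5.43% over the chromosome and 4.02% over all tested genes. The median over the 20 was 1.46 on the log2 scale. MRPL13, a mitochondrial ribosomal protein, had 111, 123 and 139 CPM in CHAGO and 11.7 to 30.8 CPM elsewhere (2.72 ± 0.33, adjusted p = 0.00143). ATAD2, a chromatin ATPase, had 838, 1001 and 1150 CPM in CHAGO and 40.3 to 362 CPM elsewhere (2.39 ± 0.46, adjusted p = 0.0132), and it lost its call in 2 of 12 fits that each left out 1 library (adjusted p up to 0.132).

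The X chromosome held the largest share of genes set apart as lower among the 23 chromosomes compared, 27 of 497 tested (5.43%), while 4 were set apart as higher (0.805%). Its median log2 fold change was −0.86, beside −0.09 over all tested genes. Of the 42 genes missing from CHAGO, 5 lie on it: MAGED1, SPIN4, CXorf26, HDX and ARMCX1. SMARCA1, an ATPase that slides nucleosomes, was chosen after its values were seen and had 11.5, 20.6 and 14.7 CPM in CHAGO and 197 to 347 CPM elsewhere (−4.15 ± 0.32, adjusted p = 9.59e-05). Genes set apart as higher made up 4.32% of those tested on chromosome 1, 4.59% on chromosome 18, 3.84% on chromosome 7 and 3.76% on chromosome 8.

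**Figure D5:**
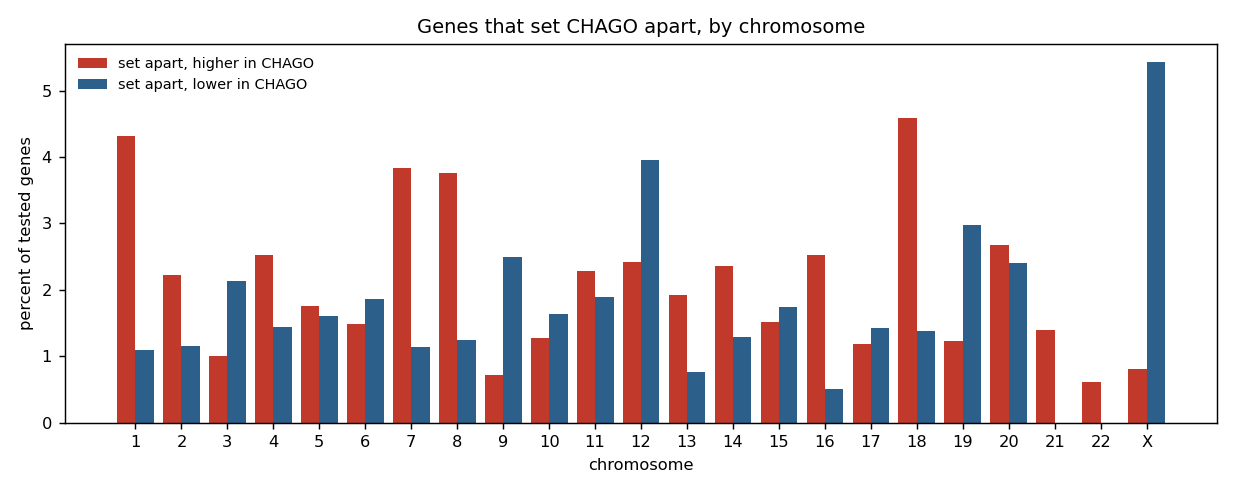
Percent of the tested genes of each chromosome that set CHAGO apart as higher (red) or lower (blue). The blue bar of chromosome X reaches 5.43%, and those of chromosomes 12 and 19 reach 3.95% and 2.97%, against 1.77% over all tested genes.

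Of 36 tested genes altered in lung cancer, 2 were called higher in CHAGO and 3 lower, against 4.02% and 3.02% of all tested genes. CCNE1, cyclin E1 of the entry into S phase, had 25.5, 51.6 and 89.3 CPM in CHAGO and 1.71 to 13.4 CPM elsewhere (log2 fold change 3.08 ± 0.57, adjusted p = 0.0111). RB1, the retinoblastoma tumor suppressor, had 30.9, 13.7 and 13.9 CPM in CHAGO and 59.4 to 231 CPM elsewhere (−2.68 ± 0.53, adjusted p = 0.0142). Neither overlapped between the groups. Over all tested genes, the CHAGO libraries lay above all others for 9.04% and below all others for 5.23%. NRAS was called lower and BRAF higher, at −0.98 ± 0.25 and 1.76 ± 0.42. Leaving out 1 library at a time ended the call of NRAS in 11 of 12 fits, of BRAF in 8 and of CCNE1 and RB1 in 2, with adjusted p of up to 0.219, 0.205, 0.127 and 0.126.

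Some antigen presentation genes were lower in CHAGO. Of 20 tested, 19 had a negative log2 fold change, 5 were called lower and none higher, and the median was −2.23. Genes with no read in CHAGO, 5 of the 20, entered the test through the other lines alone, so their sign was fixed in advance. Over all tested genes 3.02% were called lower and the median was −0.09. HLA-E had 5.45, 9.94 and 6.95 CPM in CHAGO and 12.3 to 65.3 CPM (median 37.4) elsewhere (−2.28 ± 0.49, adjusted p = 0.0221). HLA-C had 10.2, 13.4 and 16.1 CPM in CHAGO and 20.6 to 149 CPM (median 51.4) elsewhere (−2.19 ± 0.49, adjusted p = 0.0249). The groups did not overlap for either, and the CHAGO libraries lay below all others for 5.23% of all tested genes. HLA genes are near copies of one another, and the calls of HLA-E and HLA-C were lost without any 1 CHAGO library (adjusted p up to 0.154 for HLA-E and 0.178 for HLA-C). TAPBP and TAP2, which load peptides, and PSMB9, an immunoproteasome subunit, were the other 3 called, at −1.99 ± 0.45, −1.29 ± 0.32 and −4.00 ± 1.06. TAPBP lost its call in 3 of 12 fits that each left out 1 library, and TAP2 and PSMB9 in 10 (adjusted p up to 0.177, 0.173 and 0.198). B2M, the light chain of class I molecules, had 204, 448 and 439 CPM in CHAGO and 175 to 2599 CPM elsewhere, and did not pass (adjusted p = 0.312).

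Signalling lists gave few calls, to be read against the 4.02% called higher and 3.02% called lower over all tested genes. Among 40 tested genes of TGF-beta and BMP signalling, BMP5 was called higher and TGFBR2, ACVR2B and GDF11 lower. TGFBR2, the type II receptor of TGF-beta, had 37.5, 45.0 and 30 CPM in CHAGO and 80.6 to 804 CPM (median 311) elsewhere (−3.13 ± 0.82, adjusted p = 0.0455), and it lost the call in 9 of 12 fits that left out 1 library (adjusted p up to 0.231). Of 41 receptor tyrosine kinases, FGFR1 was called lower, at 4.73, 4.39 and 5.81 CPM in CHAGO and 17.8 to 146 CPM elsewhere (−3.71 ± 0.89, adjusted p = 0.0336), and the ephrin receptors EPHA1, EPHA2 and EPHB3 higher. FGFR1 and EPHA1 lost their calls in 4 of the 12 fits, EPHB3 in 3 and EPHA2 in 11 (adjusted p up to 0.194, 0.202, 0.125 and 0.362). Of 32 genes of WNT signalling, FZD9 was called higher and DKK3, FZD2 and WNT5B lower, and of 32 HOX genes HOXD10 and HOXD11 were called higher. Of these, FZD9, FZD2 and HOXD11 lost the call in 4 fits, WNT5B in 2, HOXD10 in 9 and DKK3 in none, and ACVR2B and GDF11 lost theirs in 10 (adjusted p up to 0.256, 0.165, 0.132, 0.0685, 0.171, 0.0244, 0.203 and 0.219). H19, a maternally expressed RNA, was the one of 15 imprinted genes called, with 81.5, 48.7 and 49.0 CPM in CHAGO and at most 1.63 CPM elsewhere (11.39 ± 1.83, adjusted p = 0.00541), and it lost its call in 2 of 12 fits (adjusted p up to 0.0766). Among 14 protein kinase C and polarity partners, PARD3 was called higher and PRKCA lower, and they lost their calls in 2 and 9 of 12 fits (adjusted p up to 0.223 and 0.231). No Notch, collagen, cytokine or cancer-testis gene was called by edgeR at an adjusted p under 0.05.

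In single states, with 1 CHAGO library against 3, a margin of 1 log2 unit was met as higher by 1782 genes in parental cells, 1706 in TICs and 1757 in knockdown TICs, and as lower by 1090, 1354 and 1250. The genes higher in all 3 states numbered 609, which is 34.2%, 35.7% and 34.7% of these lists, and those lower in all 3 numbered 333, which is 30.6%, 24.6% and 26.6%. Among the 319 genes set apart as higher, 170 (53.3%) stayed within 2-fold across the 3 CHAGO libraries and 71 spread over more than 4-fold. Of the 263 set apart as lower, 69 (26.2%) stayed within 2-fold, 93 spread over more than 4-fold and 86 had no read in at least 1 CHAGO library. Of the 319 higher genes the parental library was the highest of the 3 for 113, the TIC library for 95 and the knockdown library for 111. The nearest other line was CALU for 129 of the 319, H1299 for 97 and H1703 for 93.

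No gene passed the test that the difference between CHAGO and the other lines changed with state (edgeR, 0%, smallest adjusted p = 0.71), and 142 had an unadjusted p under 0.05 (0.954%). DESeq2's likelihood ratio test called 32. CD68, a lysosomal protein, had 0.0898, 97.0 and 145 CPM in CHAGO parental cells, TICs and knockdown TICs, against 336, 644 and 808 CPM in H1703, 263, 529 and 522 CPM in H1299 and 218, 270 and 247 CPM in CALU. CTNNAL1, a relative of alpha-catenin, had 2.47, 29.2 and 37.9 CPM in CHAGO, lowest in the parental library. It was highest in the parental library of each other line, at 105, 24.9 and 52.8 CPM in H1703, 150, 32.7 and 56.6 CPM in H1299 and 204, 42.0 and 57.9 CPM in CALU. Both had an unadjusted p under 0.05 by edgeR and missed its adjusted threshold.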

How the data were processed

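RNA from 4 lung cancer lines in 3 states was extracted with Qiagen RNeasy and made into libraries with NuGEN reagents, per the labels' protocols, 1 library for each line and state. The submitters' processing notes name CASAVA 1.4, TopHat 1.4, HTSeq 0.5.3p3 and hg19. Whether counting used strand is not given in the sources used here, so overlapping antisense genes and near copies (ZNF, HLA, keratin and CGB genes) are uncertain. The authors deposited raw counts per gene, which were tested, and a second table of mode-normalized values, here treated as a score, in which each library's counts were multiplied by 1 factor and rounded; it served as an alternative. Of 22506 listed genes, 4044 had no read and 26 had symbols turned into dates.

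With edgeR 4.0.16 in R 4.3.3, genes were filtered by line, scaled by TMM and fitted by the robust quasi-likelihood test as state plus CHAGO (8 residual degrees of freedom), with Benjamini-Hochberg adjustment over 14882 genes. Each ± after a log2 fold change is its SE. Margins used log2 CPM with a prior count of 2. DESeq2 1.42.0 and limma 3.58.1 gave alternatives. All p-values above that name no tool are from edgeR. The scripts were tested on simulated data. Gene order, chromosomes and promoters came from RefSeq, GRCh38.p14, matched by symbol for 18926 genes and by synonym for 2357, with 1223 unmatched; this build differs from that of the files, so no coordinate of a file was used.

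The line, the gene lists and the rules were chosen with earlier results of these data known. Named genes were PRKCI and CGA, the 12 largest changes on each side among genes set apart with at least 10 CPM on the higher side, the 6 highest genes found in or missing from CHAGO alone, and up to 6 genes of smallest p in each list and in the test by state; others are named as chosen after their values were seen, or as ends or members of a stretch. Not every gene that the rule takes is reported here.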

Additional observations from a re-analysis of the deposited data

How the results depend on the processing

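With 1 line as the object, the limit is that the libraries of a line are not independent. There was 1 library for each line and state, so the lines were matched by fitting state as a block. Without this block the counts stayed within 1.5 times. All of the 582 genes set apart kept their sign wherever they were tested. The rule asks for a margin on the same side in every state, so this was largely fixed in advance and is no separate check. Counts called higher and lower, 599 and 450, were 2627 and 1520 with a term for each line (593 set apart as higher), 293 and 262 without H1299, 1209 and 1434 against CALU only (978 and 1203 set apart), 953 and 1749 by DESeq2, 391 and 64 by limma voom with line as a random block (64 set apart as lower), and 181 and 119 at an adjusted p of 0.01. With 1 summed column per line all 4 counts were 0. The mode-normalized table gave 977 called higher and 560 set apart as higher. Genes set apart, 319 and 263, were 443 lower without H1703, 562 and 437 without CALU, 585 and 442 at a margin of 0, 183 and 138 at a margin of 2, 144 and 118 at an adjusted p of 0.01, and 609 higher by the margin alone. Leaving out 1 library at a time, counts called higher ran from 97 to 514 and lower from 102 to 380, and counts set apart from 90 to 321 and 102 to 256, each lowest without the CHAGO TIC library and, for set apart as higher, equally low without the knockdown library. The test by state called 32 genes by DESeq2 against 0 by edgeR. Found in CHAGO alone or missing were 30 and 21 genes at 5 and 0.1 CPM, thresholds chosen after seeing the data.

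Of the 101 genes recomputed, 47 lost their call without the CHAGO TIC library, 47 without the knockdown library and 39 without the parental one. The call was also lost by 36 without H1299, 27 by limma voom with line as a random block and 91 with 1 summed column per line. Reversals touched genes that were not called. PRKCI ran from −0.22, without the CHAGO TIC library, to 0.80 with 1 library left out. KRT19 was 7.23 with a term for each line, 11.14 without CALU, 4.93 by limma voom and 4.93 in the mode-normalized table, and ran from −0.76 to 4.27 with 1 library left out. LDHA was 0.072, 0.78 and 0.14 with a term for each line, without CALU and in the mode-normalized table, −1.41 against CALU only (adjusted p = 0.0138), and ran from −0.51 to 0.18 with 1 library left out. ZNF708 was 0.19 by limma voom and ran from −0.92 to 0.15. The cause was not tested. Depth limits genes with no read in H1703 and H1299, where 3 reads are up to 0.134 CPM.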
